A study of Homo sapiens with 18 samples.

Results

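The mRNAs of 10 proteins that write, erase or read N6-methyladenosine (m6A) were followed across the ribosome-bearing fractions of a sucrose gradient in HEK293 cells, an established human embryonic kidney line. They are the writers METTL3, METTL14, WTAP and VIRMA, the erasers ALKBH5 and FTO, and the readers YTHDF1, YTHDF2, YTHDF3 and YTHDC1. They were chosen by name, as known factors of the pathway, after earlier results of these data had been seen. All 10 were found among the 13661 genes of the table and passed the filter that kept 12720 genes for testing. The eraser mRNA FTO was concentrated in heavy polysomes and the eraser mRNA ALKBH5 in light polysomes. METTL3 was lower in light polysomes than in heavy polysomes and monosomes, WTAP was higher in light than in heavy polysomes, and YTHDC1 was higher in heavy polysomes than in monosomes. Each call behind these statements was lost with at least 1 of the 3 replicates left out, and that of WTAP lay just inside the threshold. The other 5 members, METTL14, VIRMA, YTHDF1, YTHDF2 and YTHDF3, passed no test between fractions. Of all genes tested, 60.3% passed at least 1 such test.

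The m6A mark is added to mRNA in the nucleus by a complex built around the METTL3 and METTL14 methyltransferase pair, with WTAP and VIRMA among its regulatory subunits. It can be removed by the iron-dependent dioxygenases FTO and ALKBH5. Proteins with a YTH domain bind the marked base and act on splicing and export in the nucleus and on decay and translation in the cytoplasm. The measurements below are of the mRNAs that encode these proteins, not of the mark or of the mRNAs that carry it.

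Polysome profiling sorts the mRNAs of a cytoplasmic lysate by the ribosomes bound to them, as they sediment through sucrose. Pools of 3 kinds were sequenced from cells given DMSO vehicle for 12 h, namely heavy polysomes, light polysomes and monosomes, with 3 biological replicates of each pool and single-end reads of 75 nt. The replicate number is also the batch number in the labels, and the 3 pools with the same number are called a gradient here. The series has 18 libraries, of which the 9 of minocycline-treated cells (100 µM) were not analysed here.

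Recovered reads per library lay between 13447139 and 24441159, and a member had between 64 reads (VIRMA, monosome library 2) and 6570 reads (WTAP, light polysome library 2). Of 10 genes that HEK293 lines are known to express, 10 were in the table, with median normalized counts between 77.7 for EYA1 and 5427 for VIM. Of 9 markers of other cell types, 3 were in the table, at medians of 5.97 for APOA1, 7.47 for COL3A1 and 53.9 for COL1A1. Light polysome library 2 stood apart from the others of its pool. Over all genes tested, its log2 values correlated at a mean r of 0.894 with the other light polysome libraries and 0.940 with the heavy polysome libraries, whereas light polysome libraries 1 and 3 correlated at 0.985. Library 2 was the least alike in the other pools too, by a smaller gap. Heavy polysome library 2 correlated at 0.949 and 0.955 with libraries 1 and 3, which correlated at 0.978. Monosome library 2 correlated at 0.940 and 0.925 with libraries 1 and 3, which correlated at 0.965. For the members, differences between pools that use light polysome library 2 are given with and without it. For the other genes named below they are given with it only.

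Normalized counts are reads divided by 1 size factor per library, which sets every library to the same typical gene. A gene's share of signal in a pool is its normalized count there as a percentage of its sum over the 3 pools of the gradient, and the median gene had 33.8% in heavy polysomes, 30.8% in light polysomes and 31.3% in monosomes. A member's share can be read against those of other genes, not as the portion of its molecules in the cell. In these bulk libraries, fewer cells with an mRNA and less of it per cell cannot be told apart.

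Ribosomes begin translation at the start codon, and the bases around it are shown for the 7 members where they could be printed. Capitals mark the base at position -3, the ATG and the base at position +4, counted from the A of the ATG, and each line runs 5′ to 3′ from 9 bases before the ATG.
METTL3: gagactAggATGTcggacacgtgg
METTL14: agttggAacATGGatagccgcttg
WTAP: tgattcAagATGAccaacgaagaa
FTO: agtggcAgcATGAagcgcaccccg
YTHDF1: tcatgaAgcATGTcggccaccagc
YTHDF2: ctgagaGccATGTcggccagcagc
YTHDC1: aggggaGccATGGcggctgacagt
These start codons lie at chr14:21511221-21511223 on the minus strand (METTL3), chr4:118685535-118685537 on the plus strand (METTL14), chr6:159736266-159736268 on the plus strand (WTAP) and chr16:53704185-53704187 on the plus strand (FTO). Those of the readers lie at chr20:63215890-63215892 on the minus strand (YTHDF1), chr1:28737121-28737123 on the plus strand (YTHDF2) and chr4:68349751-68349753 on the minus strand (YTHDC1). Positions are on GRCh38, with transcripts from GENCODE release 29. A purine at position -3 was present in 9 of the 10 members and in 86.2% of the genes tested, and a G at position +4 in 4 of the 10 and in 53.0%. The coding sequences ran between 1182 nt (ALKBH5) and 5436 nt (VIRMA), and 7 of the 10 were longer than the median of 1404 nt.

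**Figure D1:**
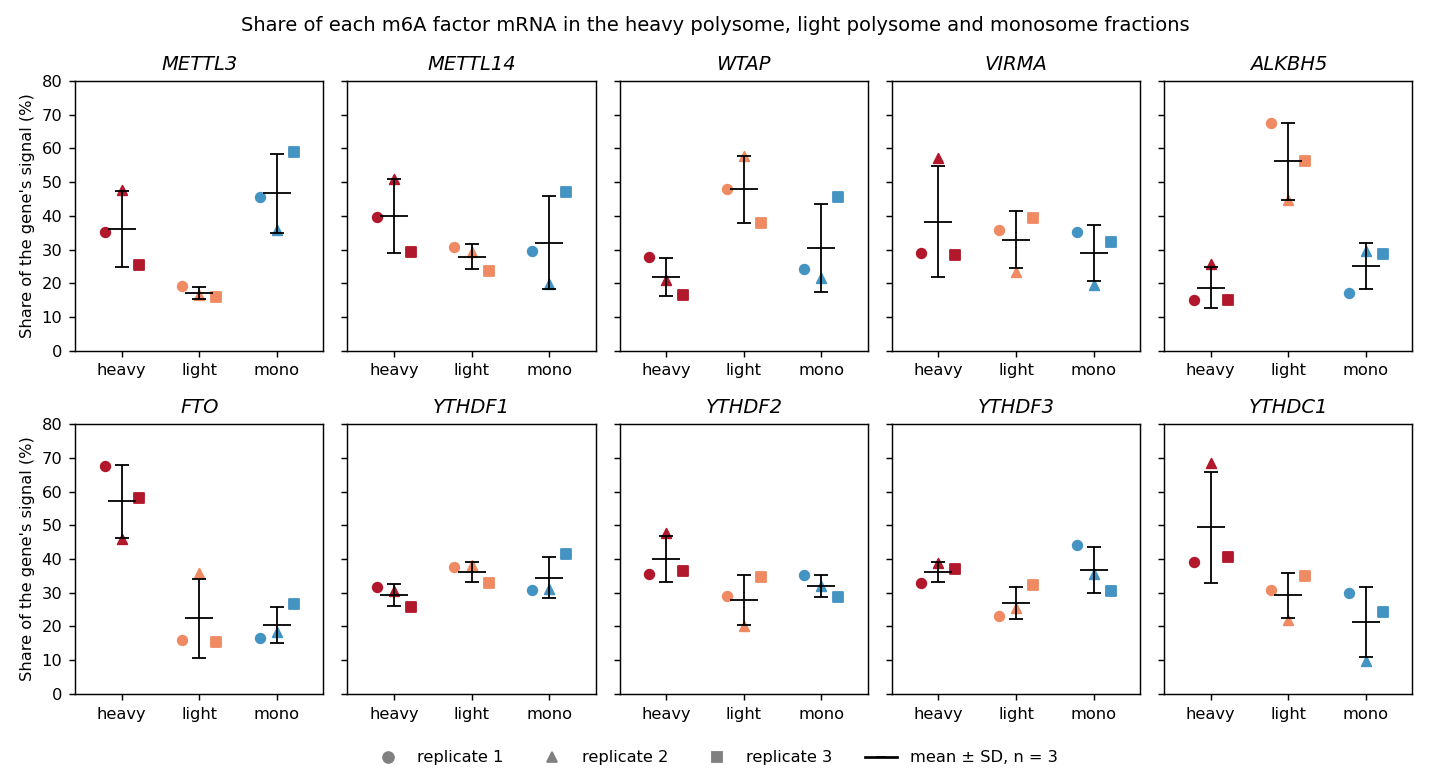
Share of each member's signal (%, vertical axis) in the heavy polysome, light polysome and monosome pools, 1 panel per gene, with 1 point per gradient and the mean ± SD (n = 3). ALKBH5 lies between 44.7% and 67.6% in light polysomes, FTO between 45.9% and 67.5% in heavy polysomes, and METTL3 no higher than 19.2% in light polysomes.

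METTL3, the catalytic subunit of the writer, was lower in light polysomes than in either neighbouring pool. Its normalized counts in gradients 1, 2 and 3 were 553, 883 and 410.0 in heavy polysomes, 299.7, 305 and 257 in light polysomes, and 712, 659 and 954 in monosomes. All light polysome values lay below all values of the other pools, while heavy polysomes and monosomes overlapped. The METTL3 share of signal averaged 36.2% ± 11.3 in heavy polysomes, 17.2% ± 1.76 in light polysomes and 46.7% ± 11.6 in monosomes (SD, n = 3), and only 6.44% of the genes tested had a lower mean light polysome share. On the log2(normalized count + 1) scale, METTL3 was lower in light polysomes than in monosomes by a fitted difference of -1.41 (SE 0.34, limma adjusted p = 0.0107) and higher in heavy than in light polysomes by 1.03 (SE 0.34, limma adjusted p = 0.0327). Without light polysome library 2 these were -1.46 (adjusted p = 0.00901) and 1.07 (adjusted p = 0.0186). Heavy polysomes against monosomes gave -0.39 (SE 0.34, limma adjusted p = 0.359), and -0.79 without gradient 2 (adjusted p = 0.0185). The light over monosome call was lost without gradient 1, at -1.50 (adjusted p = 0.127), or 3, at -1.18 (adjusted p = 0.177), and so was heavy over light, at 1.10 (adjusted p = 0.279) and 1.21 (adjusted p = 0.152). With gradient 1 or 3 left out, heavy over light called 0 and 1 of all genes tested. Without gradient 2 both METTL3 calls were kept, at -1.57 (limma adjusted p = 0.000691) and 0.78 (limma adjusted p = 0.0206).

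The METTL3 gene (chr14:21498133-21511375, minus strand) shares 388 nt of exon with TOX4, a gene on the opposite strand, and whether reads were counted by strand is not given in the sources used here. TOX4 had a mean share of 55.5% ± 4.72 in heavy polysomes, 18.3% ± 5.35 in light polysomes and 26.1% ± 0.621 in monosomes (SD, n = 3). Like METTL3, it had a low light polysome share, and unlike METTL3, its heavy polysome values lay above its monosome values in all 3 gradients. Without strand, reads of the shared exon cannot be told apart, and their part in the METTL3 values was not tested.

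METTL14, the partner that forms the RNA-binding platform of the pair, differed between no pools past the threshold. Its normalized counts were 389, 523 and 278 in heavy polysomes, 303, 299.6 and 226 in light polysomes, and 291, 201 and 447 in monosomes. The heavy polysome values overlapped those of both other pools, and the monosome value of gradient 3 was the highest of its pool. The differences were 0.37 for heavy over monosome (SE 0.36, limma adjusted p = 0.411), 0.49 for heavy over light (SE 0.36, limma adjusted p = 0.306) and -0.12 for light over monosome (SE 0.36, limma adjusted p = 0.855). Without light polysome library 2, heavy over light was 0.55 and light over monosome -0.18. Heavy over monosome was -0.13 without gradient 2, against 0.37 with it.

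WTAP, the adaptor that holds the methyltransferase pair in nuclear speckles, had its largest share in light polysomes. Its normalized counts were 2768, 1660.4 and 1767 in heavy polysomes, 4777, 4589 and 4034 in light polysomes, and 2417, 1711 and 4841 in monosomes. Every light polysome value exceeded every heavy polysome value. The monosome value of gradient 3 stood above the light polysome value of the same gradient, whereas those of gradients 1 and 2 stood below. WTAP was lower in heavy than in light polysomes by a difference of -1.15 (SE 0.42, limma adjusted p = 0.0494), and by -1.13 without light polysome library 2 (adjusted p = 0.0395). On recovered reads, edgeR's quasi-likelihood test gave an adjusted p of 0.0542, limma with no filter on low counts gave 0.0512, and limma without gradient 1 or 3 gave 0.291 and 0.242. Without gradient 2 the difference was -0.99 (limma adjusted p = 0.0221). Light over monosome gave 0.71 (SE 0.42, limma adjusted p = 0.257), and 0.69 without light polysome library 2. Its mean light polysome share of 47.8% ± 9.87 (SD, n = 3) exceeded that of 92.2% of the genes tested. WTAP (chr6:159725585-159756319, plus strand) shares 298 nt of exon with 1 gene entry named SOD2 on the opposite strand and 139 nt with another of that name. Reads there cannot be told apart without strand. Reads of the processed pseudogene WTAPP1 could be split with WTAP by the counting.

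VIRMA, the large scaffold subunit linked to methylation near the stop codon, was the member with the fewest reads. Its normalized counts were 196, 446 and 204 in heavy polysomes, 243, 182 and 282 in light polysomes, and 237, 152 and 231 in monosomes. Gradient 2 was high in heavy polysomes and low in the other pools, and heavy polysome values of gradients 1 and 3 fell within the range of light polysomes and monosomes. No contrast passed, with 0.37 for heavy over monosome (SE 0.37, limma adjusted p = 0.429), 0.17 for heavy over light and 0.19 for light over monosome. Without light polysome library 2, heavy over light was -0.0027 and light over monosome 0.37. Without gradient 2, heavy over monosome was -0.23, with the opposite sign.

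ALKBH5, one of the demethylases, was the member with the largest light polysome share. Its normalized counts were 919.9, 1016 and 997 in heavy polysomes, 4116, 1771 and 3705 in light polysomes, and 1050.1, 1173 and 1886 in monosomes. Light polysomes lay above heavy polysomes in all libraries, with the lowest light polysome value, in library 2, below the monosome value of gradient 3. In share of signal, ALKBH5 averaged 18.6% ± 6.08 in heavy polysomes, 56.2% ± 11.5 in light polysomes and 25.2% ± 6.87 in monosomes (SD, n = 3), and its light polysome share exceeded that of 98.2% of the genes tested. The difference was -1.62 for heavy over light (SE 0.39, limma adjusted p = 0.00974) and 1.18 for light over monosome (SE 0.39, limma adjusted p = 0.0478). Without light polysome library 2 they were -1.998 (adjusted p = 0.000262) and 1.56 (adjusted p = 0.00444). Heavy polysome values lay below monosome values without overlap, but the difference of -0.44 did not pass (SE 0.39, limma adjusted p = 0.365). The light over monosome call was lost without gradient 1, at 0.78 (adjusted p = 0.525), or gradient 3, at 1.28 (adjusted p = 0.184), and heavy over light at -1.35 (adjusted p = 0.248) and -1.48 (adjusted p = 0.118). Both were kept without gradient 2, at 1.47 (limma adjusted p = 0.00183) and -2.03 (limma adjusted p = 6.84e-05). ALKBH5 (chr17:18183078-18209954, plus strand) shares 357 nt of exon with the antisense gene AC087164.1, where the same limit on strand applies.

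FTO, the other demethylase, which also acts on the methylated adenosine beside the cap, had the opposite placement. Its normalized counts were 802, 996 and 637 in heavy polysomes, 190.3, 779.5 and 167 in light polysomes, and 196, 396 and 292 in monosomes. Heavy polysomes exceeded monosomes in all libraries, and exceeded light polysomes except that light polysome library 2 lay above the heavy polysome value of gradient 3. The FTO share averaged 57.1% ± 10.8 in heavy polysomes, 22.4% ± 11.7 in light polysomes and 20.5% ± 5.44 in monosomes (SD, n = 3), and its heavy polysome share exceeded that of 92.2% of the genes tested. FTO was higher in heavy polysomes than in monosomes by 1.49 (SE 0.50, limma adjusted p = 0.0231) and than in light polysomes by 1.45 (SE 0.50, limma adjusted p = 0.039). Light over monosome gave 0.04 (SE 0.50, limma adjusted p = 0.965).

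The FTO values in light polysomes turned on library 2, the one that stood apart. Without it, heavy over light was 2.16 (adjusted p = 0.00022) and light over monosome was -0.66 (adjusted p = 0.181), with the opposite sign. With all libraries, edgeR gave 1.05 for heavy over light (adjusted p = 0.114) and DESeq2 1.08 (adjusted p = 0.0791). Without gradient 1, heavy over monosome was 1.23 (adjusted p = 0.154) and heavy over light 1.14 (adjusted p = 0.317), and heavy over light was 1.21 without gradient 3 (adjusted p = 0.206). Heavy over monosome was 1.68 without gradient 3 (limma adjusted p = 0.0329). Without gradient 2 it was 1.57 (limma adjusted p = 0.00025), and heavy over light was 1.996 (limma adjusted p = 5.14e-05). FTO (chr16:53701692-54158512, plus strand) overlaps the pseudogene AC007347.2 on the opposite strand over 180 nt of exon. Reads of the processed pseudogene FTOP1 could be split with FTO by the counting.

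The YTHDF readers are close paralogs in the cytoplasm, of which YTHDF1 is best known for a link to translation, YTHDF2 for recruiting the CCR4-NOT deadenylase to marked mRNAs, and YTHDF3 for working with both. YTHDF1 had normalized counts of 1478, 1142 and 1158 in heavy polysomes, 1757, 1429.8 and 1485 in light polysomes, and 1436, 1166 and 1869.8 in monosomes. Its light polysome value exceeded its heavy polysome value in all 3 gradients, although the pools overlapped. YTHDF2 had 1559.9, 2101 and 1495 in heavy polysomes, 1266, 885 and 1427 in light polysomes, and 1544, 1414 and 1177 in monosomes. YTHDF3 had 641, 641 and 626 in heavy polysomes, 447, 423 and 548 in light polysomes, and 856, 589.9 and 518 in monosomes. For YTHDF2 and YTHDF3 the heavy polysome values all lay above the light polysome values, and for both genes monosomes overlapped heavy polysomes.

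None of the 3 YTHDF mRNAs passed a test between pools. Heavy over light gave -0.31 for YTHDF1 (SE 0.33, limma adjusted p = 0.476), 0.54 for YTHDF2 (SE 0.33, limma adjusted p = 0.223) and 0.44 for YTHDF3 (SE 0.31, limma adjusted p = 0.282). Heavy over monosome gave -0.23, 0.31 and -0.01 for the same genes, with limma adjusted p-values of 0.585, 0.460 and 0.983. Light over monosome gave 0.08, -0.23 and -0.45, with limma adjusted p-values of 0.888, 0.676 and 0.337. Without light polysome library 2, heavy over light was -0.37 for YTHDF1, 0.34 for YTHDF2 and 0.36 for YTHDF3, and light over monosome was 0.14, -0.028 and -0.37. An SE between 0.31 and 0.33 on the log2 scale bounds what 3 libraries per pool could show, and these values do not show that the 3 mRNAs are placed alike. Reads of the processed pseudogenes YTHDF1P1 and YTHDF2P1 could be split with their parent genes by the counting.

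YTHDC1, the nuclear reader linked to splicing and export of marked mRNAs, leaned to heavy polysomes, with much of the lean in gradient 2. Its normalized counts were 727, 1360.0 and 656 in heavy polysomes, 572, 435 and 567 in light polysomes, and 558, 194 and 391 in monosomes. The heavy polysome value of gradient 2 was the highest of all and its monosome value the lowest, and the heavy polysome values overlapped neither other pool. YTHDC1 averaged 49.4% ± 16.4 of its signal in heavy polysomes, 29.3% ± 6.75 in light polysomes and 21.4% ± 10.5 in monosomes (SD, n = 3). The heavy over monosome difference was 1.31 (SE 0.41, limma adjusted p = 0.0166), and it was 0.56 without gradient 2 (adjusted p = 0.0669). Heavy over light gave 0.73 (SE 0.41, limma adjusted p = 0.175) and light over monosome 0.58 (SE 0.41, limma adjusted p = 0.352), and without light polysome library 2 they were 0.60 and 0.70.

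**Figure D2:**
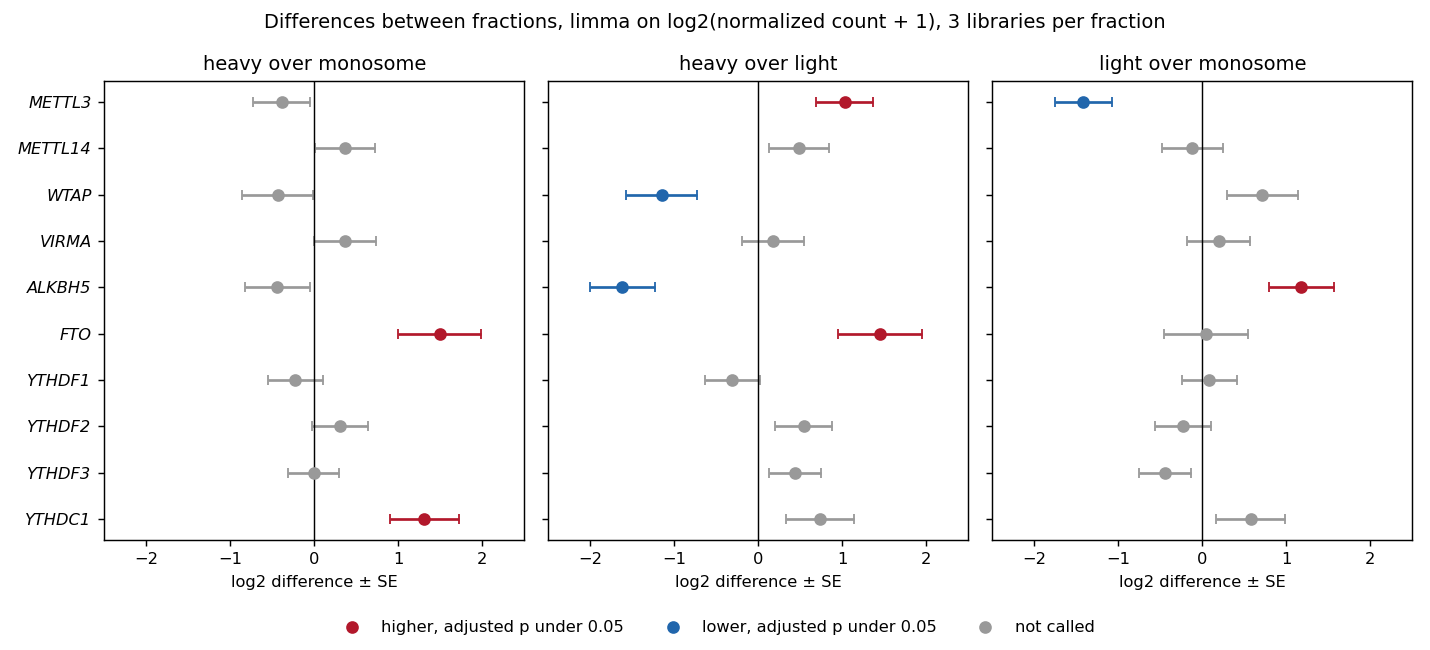
Fitted log2 differences ± SE for each member (rows) in the contrasts heavy over monosome, heavy over light and light over monosome, from limma on log2(normalized count + 1) with 3 libraries per pool. FTO and YTHDC1 are called higher in the first panel, METTL3 and FTO higher and WTAP and ALKBH5 lower in the middle panel, and in the last panel ALKBH5 is higher and METTL3 lower.

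The counts of members called were set against the share of all genes called. In heavy over monosome, 2 of the 10 members were higher and 0 lower by limma, where 24.7% of the genes tested were higher, 24.4% lower and 49.1% either. At an unadjusted p under 0.05 limma also gave 0 members lower, and edgeR and DESeq2 gave 2 higher and 0 lower. In heavy over light, 2 members were higher and 2 lower, where 14.7% of the genes were higher, 17.5% lower and 32.2% either. In light over monosome, 1 member was higher and 1 lower, where 8.47% were higher, 10.2% lower and 18.7% either. At least 1 contrast called 5 of the 10 members, against 60.3% of the genes tested. The members' values did not overlap between pools for 3 members in heavy over monosome (60.5% of genes), for 6 in heavy over light (43.4%) and for 1 in light over monosome (35.8%). These counts are no result about the members as a set, and the values that follow describe where each mRNA sat.

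The median difference of the 10 members was 0.15 for heavy over monosome, 0.46 for heavy over light and 0.06 for light over monosome, beside medians of 0.13, 0.05 and 0.04 over all genes tested. The 3 contrasts share libraries, so a member's values in them are not independent. Heavy over light depended on single gradients most: with limma, 0 genes passed without gradient 1 (2490 at an unadjusted p under 0.05) and 1 gene passed without gradient 3 (3100 unadjusted), against 4097 with all libraries. Without gradient 2, in contrast, 7651 genes passed, and 6423 passed without light polysome library 2 alone. Light over monosome called 562 genes without gradient 1, 936 without gradient 3 and 4507 without gradient 2, against 2380.

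Mean ribosome load (MRL) puts the shares of a gradient into 1 score, with weights of 1 for monosomes, 2.5 for light polysomes and 6 for heavy polysomes. From high to low, the members' means were 4.19 ± 0.39 for FTO, 3.91 ± 0.73 for YTHDC1, 3.42 ± 0.24 for YTHDF2, 3.42 ± 0.59 for METTL14 and 3.40 ± 0.70 for VIRMA (SD, n = 3). They went on with 3.22 ± 0.19 for YTHDF3, 3.07 ± 0.57 for METTL3, 3.01 ± 0.20 for YTHDF1, 2.80 ± 0.37 for WTAP and 2.77 ± 0.18 for ALKBH5. Of the 9 pairs of neighbours in that order, 2 kept it in all 3 gradients, YTHDC1 above YTHDF2 and YTHDF1 above WTAP. The others changed places between gradients. FTO, at the top, exceeded the MRL of 91.5% of the genes tested, and ALKBH5, at the bottom, that of 30.9%.

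Against the median gene of each gradient, FTO was higher, with a mean log2 difference of 0.40 (SE 0.08, limma adjusted p = 0.00594) and the same direction in 3 of 3 gradients. It was the only member called by limma, where 22% of the genes tested were higher, 24.7% lower and 46.7% either. Without gradient 1 the FTO difference was 0.33 (adjusted p = 0.0909), and without gradient 2, the one holding light polysome library 2, it was 0.47 (adjusted p = 0.000218). The summed share in light and heavy polysomes on the logit scale, tried in place of MRL, gave 0.83 for FTO (adjusted p = 0.0823). YTHDC1 lay just outside the threshold at 0.29 (SE 0.11, limma adjusted p = 0.0546), higher in 3 of 3 gradients, and passed when values were centred on the mean gene (adjusted p = 0.032), without gradient 1 (adjusted p = 0.0421) or without gradient 3 (adjusted p = 0.0364). It did not pass without gradient 2, at 0.14 (adjusted p = 0.149), or on the logit scale (adjusted p = 0.157). ALKBH5 gave -0.19 (SE 0.09, limma adjusted p = 0.119) and WTAP -0.18 (SE 0.10, limma adjusted p = 0.179), both lower in 3 of 3 gradients, and without gradient 2 ALKBH5 passed at -0.24 (adjusted p = 0.0493). On the logit scale of the summed polysome share both had the opposite sign, at 0.45 for ALKBH5 (limma adjusted p = 0.311) and 0.10 for WTAP (limma adjusted p = 0.857). The remaining 6 members lay between -0.08 and 0.11.

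**Figure D3:**
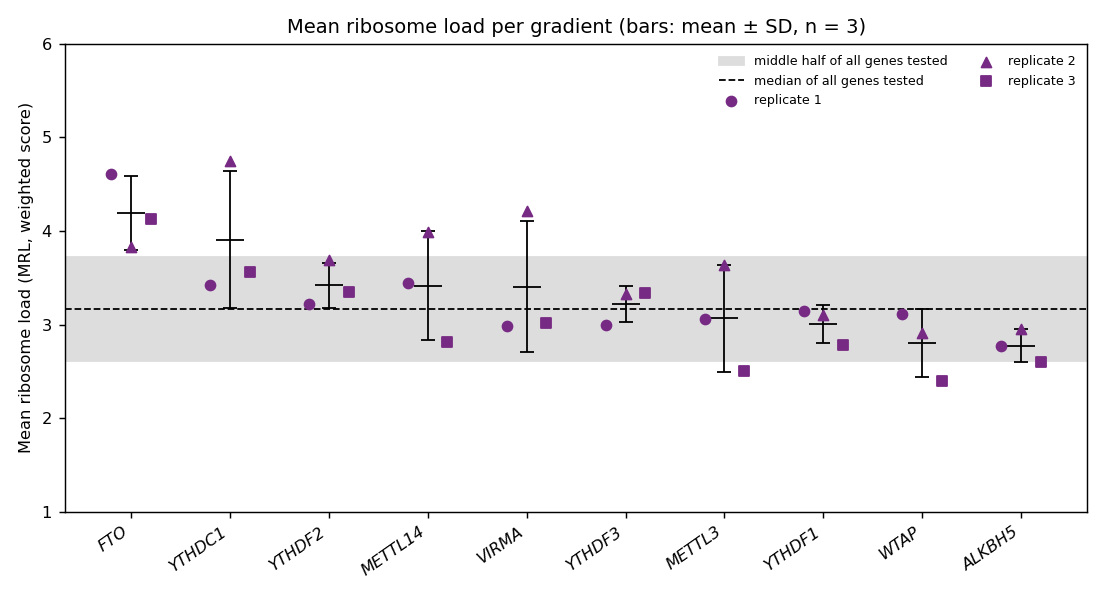
MRL (vertical axis, a weighted score) of each member, ordered from high to low mean, with 1 point per gradient and the mean ± SD (n = 3). The dashed line is the median of all genes tested and the grey band spans their interquartile range, 2.61 to 3.73. FTO lies above the band in every gradient, YTHDC1, VIRMA and METTL14 lie above it in gradient 2 alone, and METTL3, WTAP and ALKBH5 lie below it in gradient 3 alone.

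Pairs with related roles differed in how steady their order was. With 3 gradients an exact sign-flip test of a pair cannot go below p = 0.25, so the differences are given per gradient with no test. METTL3 had a lower MRL than its partner METTL14 by nearly the same step in each gradient, with differences of -0.39, -0.35 and -0.32 in gradients 1, 2 and 3. FTO minus ALKBH5 was 1.84, 0.88 and 1.53, so the eraser mRNAs kept their order in every gradient. YTHDF2 minus YTHDF1 was 0.07, 0.59 and 0.57, and YTHDF2 minus YTHDF3 was 0.23, 0.37 and 0.01. Order changed between gradients for YTHDF3 minus YTHDF1, at -0.15, 0.22 and 0.56, and for METTL3 minus WTAP, at -0.05, 0.73 and 0.10. It also changed for ALKBH5 minus METTL3, at -0.29, -0.68 and 0.10 in MRL. The light polysome share of ALKBH5, in contrast, exceeded that of METTL3 in every gradient, by 48.5, 28.2 and 40.4 percentage points.

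Gradients left a mark on several members at once. The median MRL of the 10 members was 3.13, 3.66 and 2.92 in gradients 1, 2 and 3. That of all genes tested was 3.17, 3.17 and 3.16, where the size factors set every library to the same typical gene. The rise in gradient 2 was not particular to the members: the 23 other m6A-related genes described below had medians of 3.27, 3.61 and 3.27. Gradient 2 held the highest MRL of 6 members, and of 34.6% of all genes. It held the lowest MRL of 1 member (FTO), and of 47.6% of all genes. Gradient 3 held the lowest MRL of 5 members, and of 30.7% of all genes. The spread was widest for YTHDC1 and VIRMA, whose SDs exceeded those of 92.9% and 91.5% of the genes tested, and narrowest for ALKBH5, whose SD exceeded that of 23.3%. In gradient 2, each library was the least alike of its pool, light polysome library 2 most so, and heavy polysome library 2 was the deepest of all. Their part in these values was not tested.

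**Figure D4:**
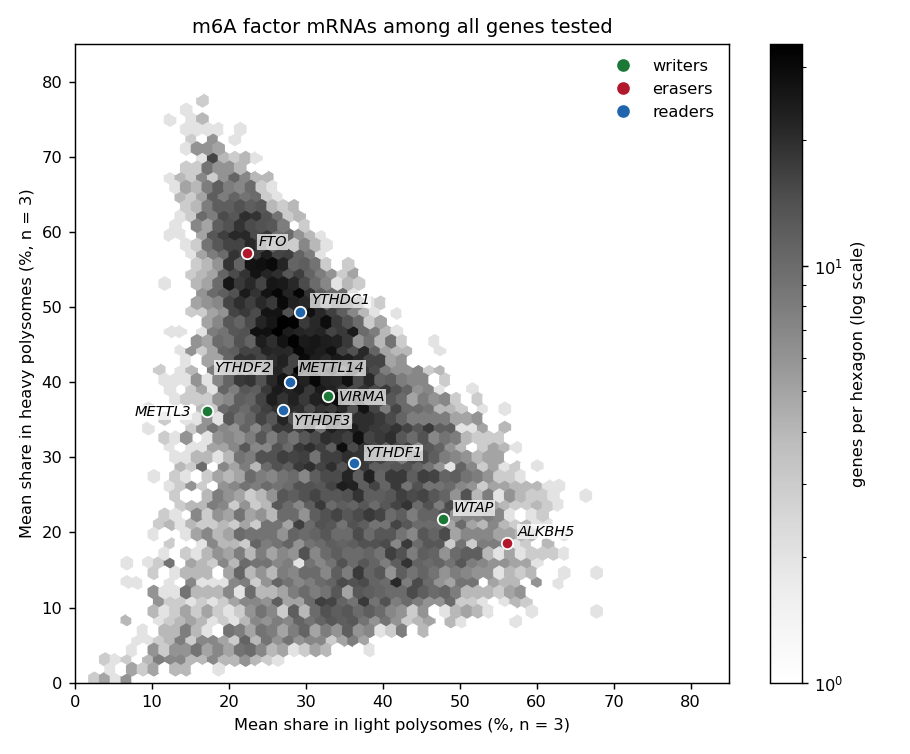
Mean share of signal in light polysomes (%, horizontal axis) and in heavy polysomes (%, vertical axis) over 3 gradients, for the members (coloured points by role) and for all genes tested (grey hexagons, log colour scale). FTO (22.4% light, 57.1% heavy) and ALKBH5 (56.2% light, 18.6% heavy) lie at opposite ends of the members, METTL3 lies at the left edge, and the points of METTL14 and YTHDF2 coincide.

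For 9 of the members, the other gene with the most similar shares was taken as the one with the smallest root mean square difference over its 9 percentages (3 pools in 3 gradients). ALKBH5 was matched by MAPKAPK3 within 1.47 percentage points, FTO by ACSS1 within 1.38, METTL3 by AP5Z1 within 2.51 and YTHDC1 by DNMT1 within 1.90. For the others the nearest genes were ARHGAP24 for METTL14 (2.69), NDEL1 for WTAP (1.75), SLC11A2 for YTHDF1 (1.84), SCFD1 for YTHDF2 (1.80) and C5orf34 for YTHDF3 (1.08). Among the members themselves, YTHDF2 and YTHDF3 were the closest pair, at 5.29 percentage points. Even so, 95 genes lay closer to YTHDF2 than YTHDF3 did, and 84 closer to YTHDF3 than YTHDF2 did. No other member was closer to METTL3 than METTL14, at 10.8 percentage points, with 698 genes closer. These are descriptions over libraries that all genes share.

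In the authors' deposited table, ALKBH5 was classed as a light polysome gene by the strict rule, a class of 3.67% of genes, and FTO as a heavy polysome gene, a class of 12.1%. No member was in its strict monosome class, which held 11.3% of genes. The strict rule was inferred here from the deposited classes. It asks for a lead in every replicate, a share of 50% or more and a gap of 10 points to the next pool. With a minimum total normalized count as well, it matched which of the 13661 genes were assigned a strict class. With the relaxed minimum of 45%, the authors' deposited table also put YTHDC1 in the heavy polysome class, which then held 16.2% of genes, beside 5.93% in the light polysome class of ALKBH5 and 13.2% in the monosome class. It left the other 7 members unassigned. The same pool led in all 3 replicates for 4 members in the authors' deposited table (ALKBH5, FTO, YTHDF2 and YTHDC1), and for 46% of genes. A log2 fold change with no stated contrast stood in the authors' deposited table at 1.89 for FTO (adjusted p 3.85e-05), 1.71 for YTHDC1 (adjusted p 0.00164) and 0.79 for YTHDF2 (adjusted p 0.0421), the members with an adjusted p under 0.05 there. The gene GC content in the authors' deposited table was between 35.4% (YTHDC1) and 50.24% (ALKBH5), and 8 of the 10 members lay below the median of 44.55% for the genes tested.

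A wider list of 23 m6A-related genes was placed beside the members, with other methyltransferases and their cofactors, other RNA-binding proteins that have been tied to the mark, and enzymes of methyl donor supply. In heavy over monosome, 8 of the 23 were higher and 4 lower, with a median of 0.18, beside 24.7% higher, 24.4% lower and a median of 0.13 over all genes tested. The other readers and m6A-linked RNA-binding proteins made up most of the higher ones, with 6 of 11 higher against 24.7% of all genes. The list was chosen with earlier results of these data known, so the counts for it and its parts are no result about them as sets. HNRNPA2B1 and HNRNPC, which bind nuclear RNA, were higher by 2.82 and 2.39 (limma adjusted p = 0.00149 and 0.00177). PRRC2A was higher by 2.07 (limma adjusted p = 0.00050) and ELAVL1, which binds AU-rich elements, by 2.02 (limma adjusted p = 0.00419).

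Of 9 other writer genes, 1 was higher in heavy polysomes than in monosomes (ZC3H13, by 1.12) and 3 were lower, beside 24.7% and 24.4% of all genes tested. RBM15B and RBM15, paralogs that bring the writer complex to its RNAs, were lower by differences of -1.85 and -1.83 (limma adjusted p = 0.000731 and 0.00693), and CBLL1, also known as HAKAI, by -0.86 (limma adjusted p = 0.0459). In methyl donor supply, the mRNA of MAT2A, which makes S-adenosylmethionine, was lower by -2.27 (limma adjusted p = 0.00765) and that of its regulatory partner MAT2B higher by 1.76 (limma adjusted p = 0.00329). None of the 4 writers among the members was called in this contrast, where their differences lay between -0.43 and 0.37.

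In MRL, 6 of the 23 genes were higher than the median gene and 4 lower (limma), beside 22% and 24.7% of all genes tested. The highest means were 4.89 ± 0.31 for HNRNPA2B1 and 4.65 ± 0.46 for HNRNPC, both above FTO, and the lowest 1.97 ± 0.41 for MAT2A and 2.20 ± 0.01 for RBM15B, both below ALKBH5 (SD, n = 3). In heavy over light, 3 of the 23 were higher (HNRNPA2B1, HNRNPC and PRRC2A) and 1 lower (METTL5, by -1.49), beside 14.7% and 17.5% of all genes. In light over monosome, 1 was higher (FMR1, by 1.51) and 2 were lower, RBM15 by -1.86 and MAT2A by -2.76, the same direction as METTL3, beside 8.47% of all genes higher and 10.2% lower.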

How the data were processed

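The submitters' processing notes name featureCounts and GRCh38; the aligner and counting options are not stated in the sources at hand. Per-library signal values, as deposited, are counts scaled by 1 size factor each. Whole reads were recovered for 100% of values (tolerance 0.01 reads), and the size factors lay within 0.987% of the median-of-ratios method. The percent values deposited by the authors were recomputed to within 5.5e-08, and their deposited MRL score to within 4.61e-09, from which the weights were solved. The deposited log2 fold change and its p-value, and the log2 polysome enrichment, have no stated contrast or formula in the authors' files.

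A filter on low values asked for 10 or more recovered reads on average and for reads in each gradient, which removed 941 genes. Pools were compared with limma 3.58.1 (R 4.3.3, trend) on log2(normalized count + 1), all 9 libraries together with pool as the only term, so fold changes of low genes are understated. MRL was tested with limma on log2 MRL minus the median gene of each gradient, against 0. Tests were two-sided with Benjamini-Hochberg adjustment over the 12720 genes at 0.05. The scripts were tested on simulated data. Alternatives used edgeR 4.0.16 and DESeq2 1.42.0 on recovered reads, TMM scaling, a pseudocount of 10, no filter, a replicate block and left-out libraries.

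The labels give the replicate number as the batch, so same-numbered libraries were taken as paired for the shares and MRL, but not in the main contrasts between pools. Their deviations from the pool means correlated at 0.0906, 0.200 and 0.391 between heavy and light polysomes, 0.0967, -0.138 and -0.540 between heavy polysomes and monosomes, and 0.144, 0.125 and -0.0545 between light polysomes and monosomes, in replicates 1, 2 and 3. Every member and the wider list of 23 genes were named by a written rule, with values for the 2 highest and 2 lowest of that list by MRL and up to 8 called in heavy over monosome; ZC3H13, CBLL1 and those named in the other contrasts were chosen after their values were seen. Members and lists were chosen with earlier results of these data known. The nearest gene of 1 member is not reported here. Gene models came from GENCODE release 29.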

Additional observations from a re-analysis of the deposited data

How the results depend on the processing

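The replicate block changed no member's call: it called 2, 2 and 4 members and 6274, 2424 and 4302 genes in heavy over monosome, light over monosome and heavy over light, against 6246, 2380 and 4097 genes without it. The number of members called in MRL was 2 when centred on the mean gene and 0 for the polysome share on the logit scale, and 1 to 2 without single replicates. Genes called in MRL were 3410 on the logit scale and 3422 to 7264 without single replicates, against 5937. Centring on the mean gene gave 3537 higher and 2713 lower, against 2798 and 3139. Without single replicates, members called ranged from 1 to 2 in heavy over monosome, 0 to 2 in light over monosome and 0 to 4 in heavy over light, and genes called from 3137 to 7814, 562 to 4507 and 0 to 7651. Heavy over light called 2 members by edgeR, and 6423 genes without light polysome replicate 2.

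Directions that turned round belonged to differences that passed no test with all libraries. On the logit scale, MRL differences were -0.0048 for METTL14, 0.10 for WTAP, 0.45 for ALKBH5, -0.068 for YTHDF2 and -0.36 for YTHDF3, and with weights of 1, 2 and 3 YTHDF3 gave -0.017. Without light polysome replicate 2, FTO gave -0.66 in light over monosome and VIRMA -0.0027 in heavy over light. Without single replicates, MRL differences ranged from -0.19 to 0.073 for METTL3, -0.022 to 0.23 for METTL14, -0.075 to 0.17 for VIRMA and -0.0078 to 0.073 for YTHDF3. Heavy over monosome ranged from -0.79 to 0.030 for METTL3, -0.13 to 0.89 for METTL14, -0.75 to 0.076 for WTAP, -0.23 to 0.69 for VIRMA, -0.36 to 0.0059 for YTHDF1 and -0.15 to 0.20 for YTHDF3. Light over monosome ranged from -0.46 to 0.31 for METTL14, -0.42 to 0.47 for FTO and -0.021 to 0.29 for YTHDF1, and heavy over light from -0.39 to 0.49 for VIRMA. Of the members with such a value, METTL3 passed at -0.79 in heavy over monosome (adjusted p = 0.0185) and ALKBH5 at -0.24 in MRL (adjusted p = 0.0493), both without replicate 2. Each omission leaves 2 libraries per pool, and the cause was not tested. Without replicate 2, the FTO light polysome share was 15.6%, against 22.4%, and the YTHDC1 heavy polysome share 39.9%, against 49.4%.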
